A study of Mus musculus with 8 samples.

Results

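Expression of 37 genes for protein folding in the endoplasmic reticulum (ER), ER-associated degradation (ERAD) and the unfolded protein response (UPR) was examined in mouse pancreas. The genes were chosen by name, as known ER chaperones, folding enzymes, ERAD factors and UPR sensors, with earlier results of these data known. Their counts beside the shares of all genes are therefore descriptions. All 37 were found among the 48709 genes of the deposited tables. RNA-Seq was performed on pancreas tissue of male mice aged 8 weeks, with 2 libraries in each of 4 groups. WT mice and cKO mice (*Pfkfb3* fl/fl with Cre under the *Pdx1* promoter) received normal saline, or received palmitoleic acid (POA) and ethanol, which give severe acute pancreatitis driven by fatty acid ethyl esters (FAEE-SAP). Tissue was taken 24 hours after induction. *Pdx1* is active in the precursors of acinar, duct, and islet cells, so the deletion is not limited to acinar cells and leaves immune and stromal cells with the intact gene. The labels call the libraries of a group biological replicates and do not say which mouse gave which library.

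Acinar cells of the exocrine pancreas make more secretory protein for their size than almost any other cell, and their rough ER is correspondingly large. New chains are bound by BiP, the product of *Hspa5*, and by its cochaperones, glycoproteins are held by calnexin and calreticulin, and disulfide bonds are formed by protein disulfide isomerases. Chains that do not fold are sent back to the cytosol and degraded by ERAD. When unfolded chains build up, the sensors ATF6, IRE1 (gene *Ern1*), and PERK (gene *Eif2ak3*) are released from BiP, and IRE1 splices the mRNA of *Xbp1*, a transcription factor that is also needed for acinar differentiation. A value per gene does not show this splicing.

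Depth, worked out from the smallest values and exonic lengths, was 22.9 to 37.8 M reads per library, and the 37 genes had from 235 reads (*Derl2* in its lowest library) upward. Digestive enzyme genes fill much of a pancreas library. After saline, a list of 32 such genes with 4 further amylase genes held 86.0% to 88.5% of all RPKM. The share was 80.7% in each cKO FAEE-SAP library and 65.0% and 67.6% in the WT FAEE-SAP libraries. RPKM is relative to all reads of a library, so a fall in the enzymes raises the RPKM of genes that do not fall with them, and levels are given below as scaled RPKM, RPKM divided by a factor for each library so that the median gene stays level. All 20 acinar markers were above 0 in every library, and the neutrophil markers summed to 1.27 to 3.72 scaled RPKM in the saline libraries against 53.0 and 58.5 in WT and 12.5 and 19.7 in cKO mice with FAEE-SAP. *Pfkfb3* did not separate the genotypes. Its level after saline was 1.70 and 1.69 in WT against 0.880 and 2.10 in cKO mice, and with FAEE-SAP it was 1.85 and 3.21 against 1.74 and 2.82. A value per gene does not separate the deleted exons from the rest of the transcript, so the deletion was not tested here.

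Many of these genes are known to be switched on through short promoter elements bound by ATF6 and XBP1, so the promoters were read first. RefSeq windows of 300 bases, from 250 before to 50 after the annotated start, were at hand for 31 of the 37 genes (not for *Atf6*, *Derl1*, *Erp27*, *Hspa13*, *Hyou1*, and *Manf*). The ER stress response element, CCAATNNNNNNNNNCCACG on either strand, was found in 9 of the 31 (29%) and in 37 of all 27025 genes with a window (0.137%). The ER stress response element II, ATTGGNCCACG, was found in 2 of the 31 (6.45%) against 0.0444% of all genes. The unfolded protein response element, TGACGTGG, was found in *Txndc5* and *Vcp* (6.45% against 0.714%). The 3 motifs do not overlap in any of these windows. The 37 genes were chosen as known genes of this response, so the higher shares were foreseeable and serve as description only. A match is a run of letters and does not show that a factor binds there. The matches of the first 2 motifs are printed because the genes that hold them are also described as a group below. They are read 5′ to 3′ along the gene's strand in GRCm38.p6, with the fixed letters of the motif in capitals and positions counted from the start site.
Hspa5 (chr2:34772025-34772043, -65 to -47): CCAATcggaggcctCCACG
Hsp90b1, distal (chr10:86705638-86705656, -212 to -194): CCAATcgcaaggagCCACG
Hsp90b1, proximal (chr10:86705533-86705551, -107 to -89): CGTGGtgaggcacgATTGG
Calr (chr8:84847075-84847093, -162 to -144): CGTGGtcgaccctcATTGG
Canx (chr11:50325800-50325818, -145 to -127): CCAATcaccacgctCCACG
Pdia6 (chr12:17266491-17266509, -98 to -80): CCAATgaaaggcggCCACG
Dnajc3 (chr14:118937827-118937845, -105 to -87): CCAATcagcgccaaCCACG
Creld2 (chr15:88819520-88819538, -126 to -108): CGTGGcgagcctcaATTGG
Syvn1 (chr19:6046532-6046550, -44 to -26): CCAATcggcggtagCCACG
Derl3 (chr10:75893242-75893260, -156 to -138): CGTGGgacttccccATTGG
Herpud1, element II (chr8:94386377-94386387, -52 to -42): ATTGGgCCACG
Dnajb11, element II (chr16:22857852-22857862, 8 to 18): ATTGGcCCACG

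The windows of *Hspa5* (chr2:34771840-34772139, plus strand) and *Herpud1* (chr8:94386179-94386478, plus strand) are printed whole, since these genes had the largest ratios between the WT FAEE-SAP libraries. Capitals mark the element.
Hspa5: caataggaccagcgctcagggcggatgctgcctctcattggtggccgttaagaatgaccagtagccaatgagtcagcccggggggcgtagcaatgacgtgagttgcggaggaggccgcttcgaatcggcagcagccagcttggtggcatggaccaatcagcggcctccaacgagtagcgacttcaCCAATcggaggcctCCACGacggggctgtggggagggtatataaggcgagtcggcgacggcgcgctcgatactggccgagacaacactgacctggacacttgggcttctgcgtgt
Herpud1: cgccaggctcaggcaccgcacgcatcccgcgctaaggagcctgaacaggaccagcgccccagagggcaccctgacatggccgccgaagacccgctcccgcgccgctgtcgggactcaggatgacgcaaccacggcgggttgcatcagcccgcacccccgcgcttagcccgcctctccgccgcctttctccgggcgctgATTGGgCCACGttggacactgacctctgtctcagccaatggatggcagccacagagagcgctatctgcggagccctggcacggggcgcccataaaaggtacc

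**Figure D1:**
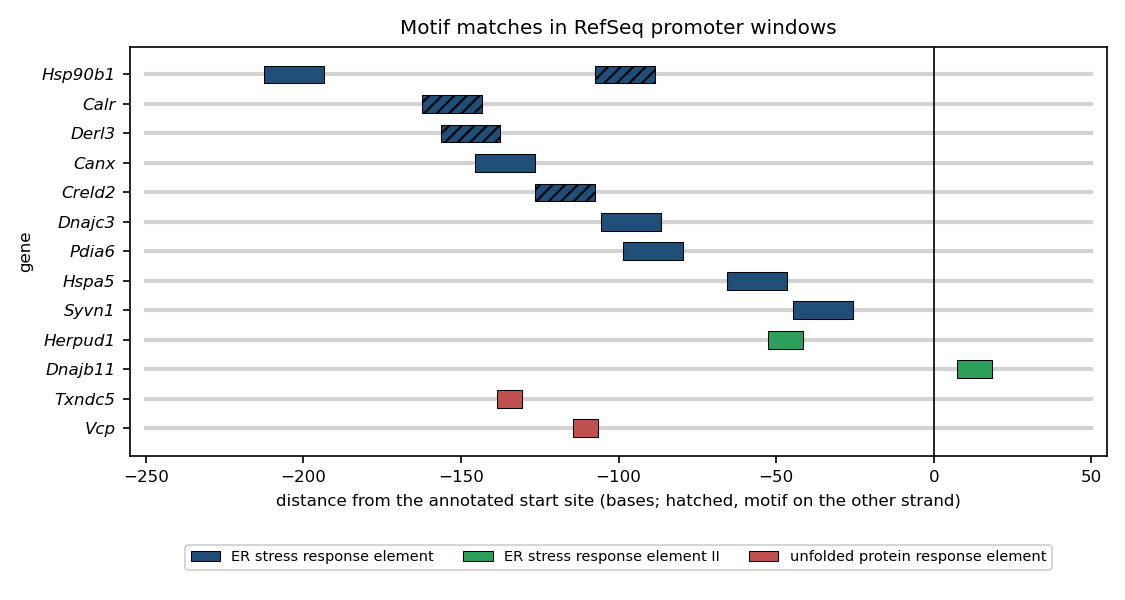
Motif matches along the promoter windows of the 13 genes that hold 1 of the 3 motifs. The horizontal axis is the distance from the RefSeq start site in bases, bars are matches, colors are motifs, and hatching marks the strand opposite to the gene. Every match lies upstream of that start site except that of *Dnajb11*, at 8 to 18 bases. The matches of *Hspa5* and *Txndc5* lie inside the bounds of these genes in GENCODE, where the genes start further upstream.

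In the pancreas of WT mice after saline, the 37 genes covered a wide range of levels. RPKM is per length, so levels of different genes can be set side by side. *Pdia2*, a disulfide isomerase made almost only in pancreas, was the most abundant, at a scaled RPKM of 752 ± 40.5 (SD, n = 2). *P4hb*, the general protein disulfide isomerase (167 ± 3.55), and *Ppib*, the prolyl isomerase cyclophilin B (146 ± 2.05), came next and did not overlap with *Pdia2* or with each other. *Sel1l* (84.0 ± 11.4), the adaptor of the HRD1 ubiquitin ligase, and *Herpud1* (79.4 ± 10.1), a membrane protein of the same complex, followed and overlapped between libraries. *Erp27* (64.8 ± 2.40), a disulfide isomerase relative without catalytic activity, and *Hspa5* (61.1 ± 4.51) were neighbors whose libraries also overlapped. The lowest were *Ern1* (3.99 ± 0.0474), *Uggt1*, the glycoprotein folding sensor (3.23 ± 0.636), *Hspa13*, a small Hsp70 relative (2.16 ± 0.599), and *Derl2*, a channel protein of ERAD (1.47 ± 0.0414). Among the sensors, *Eif2ak3* (12.9 ± 1.59) was above *Atf6* (7.10 ± 0.418), and *Atf6* was above *Ern1*, without overlap.

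**Figure D2:**
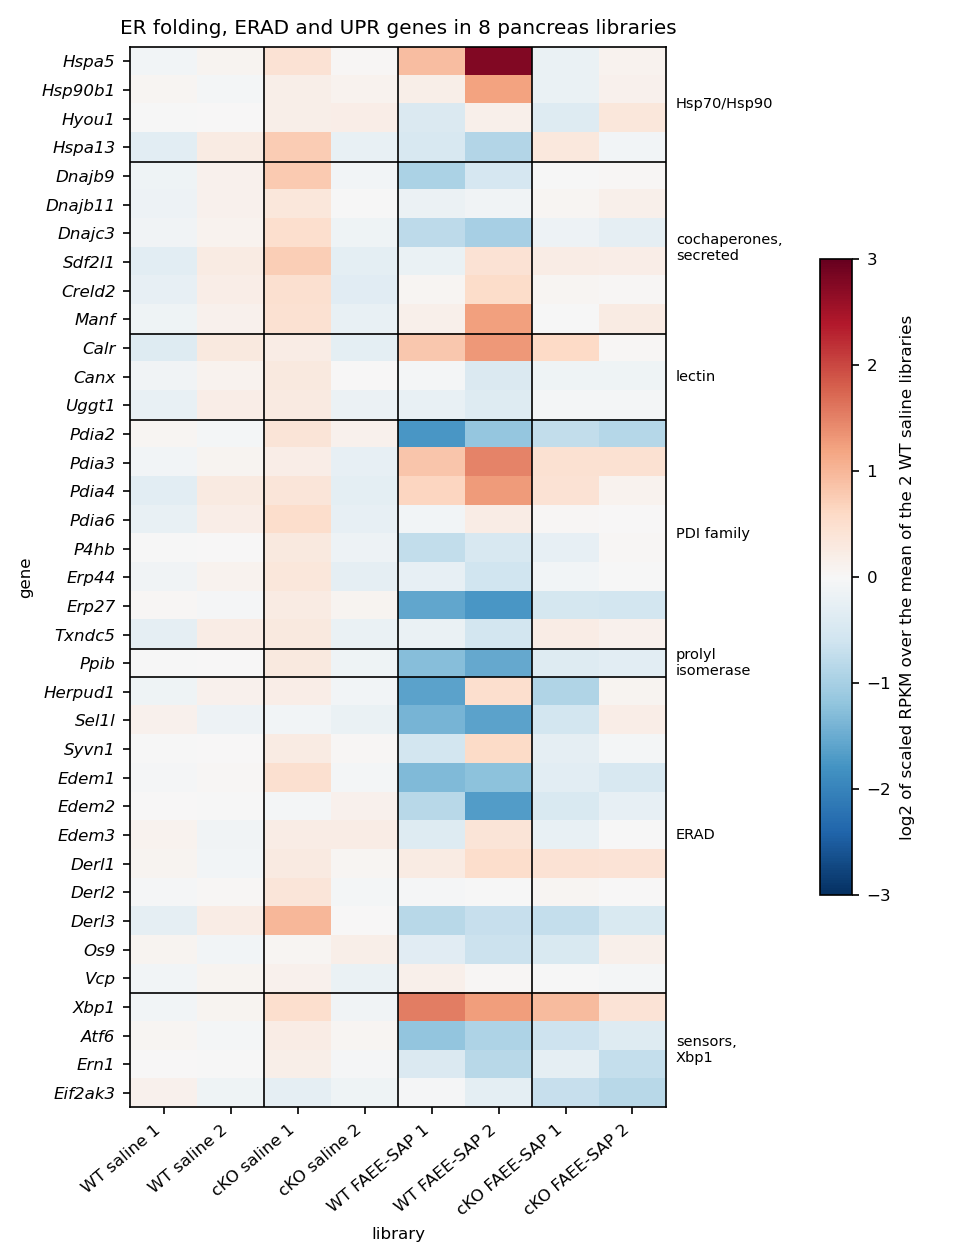
Scaled RPKM of the 37 genes in each of the 8 libraries, as the log2 ratio to the mean of the WT saline libraries, with genes in rows ordered by role and libraries in columns. Red is higher and blue is lower; *Hspa5* in WT FAEE-SAP replicate 2 is the darkest cell, and the 4 saline libraries are pale for most genes.

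FAEE-SAP in WT mice was compared with saline to ask how these genes respond to pancreatitis. Among the 37 genes, *Xbp1* was called higher, and *Erp27*, *Sel1l*, *Pdia2*, *Ppib*, *Edem1*, and *Atf6* were called lower (limma, Benjamini-Hochberg adjusted p under 0.05 over 10894 genes and at least 2-fold). Of all genes tested, 3.08% were called higher and 3.86% lower, against 1 and 6 of these 37. With an unadjusted p under 0.05 and 2-fold, 11 of the 37 passed, and 12.4% of all genes. All 37 genes passed the filter on low values. Their median log2 fold change was -0.24, with 13 above 0 and 24 below, and the median of all genes tested was 0.02. The acinar markers fell in the same libraries, with all 20 of 20 called lower and a median log2 fold change of -1.98. Their summed level was 388133 and 467145 scaled RPKM in WT saline and 116899 and 121685 in WT FAEE-SAP. Of 7 islet markers 6 lay below 0 and 2 were called lower (*Gcg* and *Sst*), with a median of -0.75 and sums of 339 and 285 in WT saline against 181 and 239. In tissue RNA, fewer acinar cells and less of an mRNA per acinar cell cannot be told apart, and the part of either in these results was not tested.

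*Hspa5* (chr2:34771970-34777547) encodes BiP, the Hsp70 chaperone of the ER. In WT mice its level was 57.9 and 64.3 after saline and 115 and 421 with FAEE-SAP, and in cKO mice it was 82.2 and 62.8 after saline and 53.1 and 65.8 with FAEE-SAP. Both WT FAEE-SAP libraries were above every other library, and replicate 2 was far above replicate 1. The log2 fold change in WT was 1.84 (SE 0.57), which did not pass (limma, adjusted p = 0.105), and it was 2.82 (adjusted p = 0.0250) without replicate 1 of WT FAEE-SAP and 0.95 (adjusted p = 0.133) without replicate 2. In such fits the library left alone in its group is assumed to vary like the other group. *Hsp90b1*, which encodes the ER form of Hsp90, GRP94, was 43.3 and 40.4 in WT saline and 46.9 and 96.9 in WT FAEE-SAP, and shares 415 bases of exon with *1810014B01Rik* on the opposite strand. *Hspa13* lay lower in WT FAEE-SAP (1.55 and 1.18) than in WT saline (1.74 and 2.59), and *Hyou1*, the nucleotide exchange partner of BiP, overlapped between the groups (15.0 and 15.3 against 11.3 and 17.0). None of the 4 Hsp70 and Hsp90 genes was called, and their median log2 fold change was 0.27.

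The cochaperones and small secreted proteins of the ER stress response gave 0 calls among 6 genes, with log2 fold changes of -0.89 to 0.69. *Dnajc3*, the cochaperone p58IPK, which also restrains PERK, was 22.4 and 26.0 in WT saline and 14.1 and 12.1 in WT FAEE-SAP. Its log2 fold change of -0.89 (SE 0.18, limma adjusted p = 0.0438) passed the p-value and not the 2-fold minimum. *Manf*, a small protein that is retained by BiP and secreted when ER calcium falls, was 12.5 and 15.1 in WT saline and 15.3 and 32.4 in WT FAEE-SAP. *Creld2* (0.31, SE 0.25) and *Sdf2l1* (0.14, SE 0.29), stress-induced ER proteins, lay above 0 and overlapped between the groups. *Dnajb9*, the cochaperone ERdj4, was 10.6 and 12.7 in WT saline and 6.06 and 8.26 in WT FAEE-SAP, and *Dnajb11*, the cochaperone ERdj3, had a log2 fold change of -0.13 (SE 0.18). The sign of this group was therefore mixed.

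None of the 3 lectin chaperone genes was called. *Calr*, calreticulin, was 16.6 and 26.7 in WT saline and 38.1 and 53.7 in WT FAEE-SAP, with a log2 fold change of 1.10 (SE 0.29, limma adjusted p = 0.0754). *Canx*, its membrane-bound relative calnexin, overlapped between the groups (log2 fold change -0.24, SE 0.20). *Uggt1*, which returns misfolded glycoproteins to this pair, was 2.78 and 3.68 in WT saline and 2.75 and 2.46 in WT FAEE-SAP, with little space between the nearest libraries.

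In the protein disulfide isomerase family 2 of 8 genes were called lower and 0 higher. *Pdia2* (chr17:26195999-26199087) was 781 and 724 in WT saline and 226 and 337 in WT FAEE-SAP, a log2 fold change of -1.45 (SE 0.22, limma adjusted p = 0.0217). *Erp27* (chr6:136907311-136922180) was 66.5 and 63.2 in WT saline and 21.9 and 19.4 in WT FAEE-SAP, the lowest adjusted p of the 37 genes (log2 fold change -1.66, SE 0.16, limma adjusted p = 0.00629). Both are genes of the exocrine pancreas, and both fell to below the lowest saline library by more than 2-fold. *Pdia3*, the isomerase that works with calnexin and calreticulin and that ERp27 binds, was 16.6 and 18.5 in WT saline and 31.0 and 49.2 in WT FAEE-SAP. Its log2 fold change of 1.15 (SE 0.25) did not pass (limma adjusted p = 0.0508). *Pdia4*, a further isomerase, was 6.46 and 9.69 in WT saline and 12.7 and 19.5 in WT FAEE-SAP (log2 fold change 0.98, SE 0.30, limma adjusted p = 0.101). *P4hb* was 165 and 170 in WT saline and 99.5 and 120 in WT FAEE-SAP, a log2 fold change of -0.62 (SE 0.16, limma adjusted p = 0.0727). *Pdia6*, *Erp44*, which returns escaped ER proteins from the Golgi, and *Txndc5* had log2 fold changes of 0.09, -0.42, and -0.36. Of the 8 genes of the family, 3 were above 0 and 5 below, and the median was -0.39.

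*Ppib* (chr9:66060222-66066623) catalyses proline isomerization in secretory proteins. In WT mice its level was 145 and 148 after saline and 60.1 and 50.5 with FAEE-SAP, and in cKO mice it was 179 and 133 after saline and 112 and 117 with FAEE-SAP. The WT FAEE-SAP libraries were the lowest of the 8, with a log2 fold change in WT of -1.41 (SE 0.16, limma adjusted p = 0.0103). *Ppib* shares 825 bases of exon with *Snx22* on the opposite strand, and whether strand was used in counting is not given in the sources used here.

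Among 11 ERAD genes, *Sel1l* and *Edem1* were called lower, 8 had log2 fold changes below 0, and the median was -0.49. *Sel1l* (chr12:91806043-91849157) was 92.0 and 75.9 in WT saline and 31.9 and 27.5 in WT FAEE-SAP (log2 fold change -1.50, SE 0.18, limma adjusted p = 0.0117). In the cKO libraries *Sel1l* was 79.2 and 72.8 after saline and 57.6 and 95.9 after FAEE-SAP, all above the WT FAEE-SAP libraries. *Edem1* (chr6:108828641-108859356), which helps to pick terminally misfolded glycoproteins by their mannose trimming, was 30.7 and 31.8 in WT saline and 12.5 and 13.3 in WT FAEE-SAP (log2 fold change -1.28, SE 0.16, limma adjusted p = 0.0126). *Edem2*, which makes the first mannose cut on such glycoproteins, had a similar value and was not called, at 37.7 and 36.8 in WT saline and 20.9 and 11.7 in WT FAEE-SAP (log2 fold change -1.26, SE 0.29, limma adjusted p = 0.0577). *Os9*, the lectin that hands glycoproteins to SEL1L, was 30.6 and 27.3 in WT saline and 22.9 and 18.5 in WT FAEE-SAP. *Edem3* had a log2 fold change of -0.0016 (SE 0.28), *Syvn1* of 0.01 (SE 0.37), *Herpud1* of -0.55 (SE 0.64), and *Derl3* of -0.75 (SE 0.22). *Derl1*, a channel protein of ERAD, had the highest log2 fold change of the group, 0.37 (SE 0.20), with 6.94 and 6.13 in WT saline and 7.70 and 9.34 in WT FAEE-SAP. *Vcp*, the ATPase that pulls chains into the cytosol, and *Derl2* overlapped between the groups, with log2 fold changes of 0.09 and -0.03.

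Among the sensors and *Xbp1*, 1 gene was called higher and 1 lower. *Xbp1* (chr11:5520659-5525893) was 47.8 and 53.1 in WT saline and 147 and 119 in WT FAEE-SAP, the only gene of the 37 called higher (log2 fold change 1.39, SE 0.17, limma adjusted p = 0.0126). *Atf6* (chr1:170704674-170867771) was 7.39 and 6.80 in WT saline and 3.12 and 3.72 in WT FAEE-SAP (log2 fold change -1.05, SE 0.20, limma adjusted p = 0.0373). *Ern1* was 4.02 and 3.95 in WT saline and 2.94 and 2.23 in WT FAEE-SAP, a log2 fold change of -0.63 (SE 0.22, limma adjusted p = 0.136). *Eif2ak3* was 14.0 and 11.8 in WT saline and 12.7 and 10.5 in WT FAEE-SAP, overlapping, with a log2 fold change of -0.16 (SE 0.20), and shares 485 bases of exon with *Gm43292* on the opposite strand. *Xbp1* is also made at high levels by plasma cells. The 10 B and plasma cell markers summed to 15.9 and 27.6 scaled RPKM in WT saline and 37.7 and 24.5 in WT FAEE-SAP, with 1 called higher (*Sdc1*, which epithelial cells also make) and 1 called lower (*Irf4*). The part of these cells in the *Xbp1* difference was not tested.

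**Figure D3:**
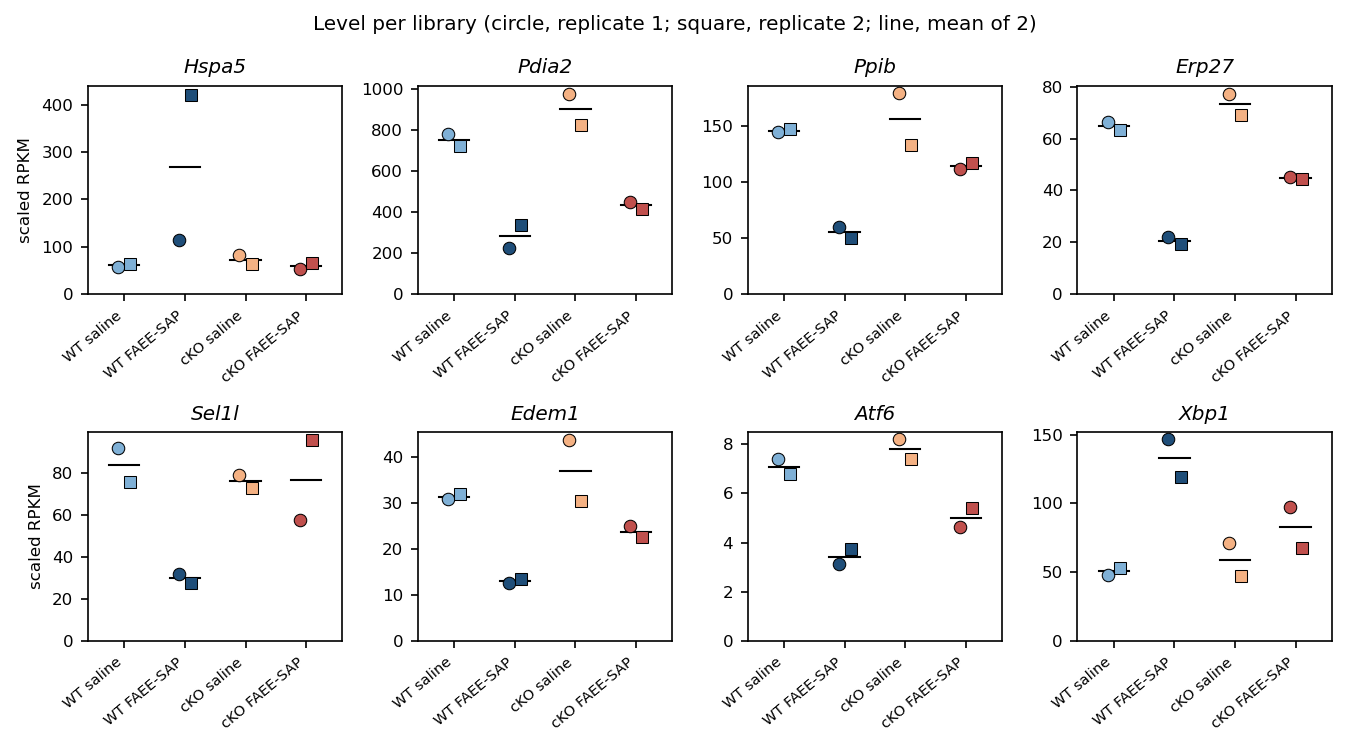
Scaled RPKM per library of *Hspa5* and the 7 genes called in WT, 1 panel a gene with a vertical axis from 0, circles for replicate 1, squares for replicate 2, and a line at the mean of 2. For *Pdia2*, *Ppib*, *Erp27*, *Sel1l*, *Edem1*, and *Atf6* the WT FAEE-SAP libraries are the lowest of the 8, and for *Xbp1* and *Hspa5* the highest.

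The calls in WT rest on which libraries and which scaling are used. Without replicate 2 of WT FAEE-SAP only *Pdia2* passed, as lower (0.681% of all genes), and *Ppib*, *Sel1l*, *Edem1*, *Xbp1*, *Atf6*, and *Erp27* had adjusted p-values of 0.0605 to 0.127. Without replicate 1 of WT saline 2 genes were called, both lower (0.895% of all genes, with 1.52% higher). With unscaled RPKM all genes together had a median of 1.24, and 19 of the 37 genes (51.4%) were called higher and 0 lower, a lower share than the 65.9% of all genes called higher (0.789% were called lower). *Edem1* and *Atf6* then lay above 0. Scaled to the RPKM outside the 32 enzymes, where that median was 0.96, 14 (37.8%) were called higher and 0 lower, against 45.1% and 1.22% of all genes. With 4 further amylase genes left out of the total, an alternative added after their levels were seen, the median of all genes was 0.19, and 2 of the 37 were called higher (*Pdia3* and *Xbp1*) and 5 lower (*Edem1*, *Erp27*, *Ppib*, *Sel1l*, and *Pdia2*), against 4.31% and 2.95% of all genes. Lower therefore means lower than the median gene. *Xbp1* was called higher under each of these scalings.

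The libraries of a group differed from each other in these genes, in saline groups as well as after FAEE-SAP. The median log2 ratio of replicate 2 over replicate 1 over the 37 genes was furthest from 0 in cKO saline, at -0.41 with 5 above 0 and 32 below, where all genes had a median of -0.01. It was 0.15 in WT saline, with 26 above 0 and 11 below. With FAEE-SAP it was 0.14 in the WT group, with 22 above 0 and 15 below, and -0.0023 in the cKO group, with 18 above 0 and 19 below. Ratios of 2-fold or more occurred in WT FAEE-SAP for 5 genes, which were picked out after their values were seen. *Herpud1* was 26.1 in replicate 1 and 113 in replicate 2, a ratio of 4.31, and *Hspa5* had a ratio of 3.65. *Syvn1*, the HRD1 ubiquitin ligase (4.19 and 9.16), *Manf* (ratio 2.12), and *Hsp90b1* (ratio 2.07) were the other genes at least 2-fold higher in replicate 2. These 5 of 37 stood against 1.89% of 10667 genes. No gene of the 37 was at least 2-fold lower in replicate 2, against 2.02% of all genes. *Herpud1* in replicate 1 was below, and in replicate 2 above, every one of the other 6 libraries (42.5 to 91.8). In WT saline 0 of the 37 genes differed by 2-fold in either direction (1.54% of 8227 genes were higher in replicate 2 and 1.37% lower). In cKO saline 0 were at least 2-fold higher in replicate 2 (2.43% of 7541 genes) and 1 was at least 2-fold lower (1.84%), *Sdf2l1*, at 35.2 and 17.3. In the cKO FAEE-SAP group 0 of the 37 genes were at least 2-fold higher in replicate 2 (2.12% of 9165 genes) and 0 at least 2-fold lower (2.54%). *Herpud1* came nearest there, at 42.5 and 84.5. With 1 library on each side no test applies. In the WT FAEE-SAP libraries the acinar markers summed to 116899 and 121685, sums that rest on a few abundant enzymes, and 3 of the 20 were at least 2-fold lower in replicate 2. These were *Rnase1*, a secreted ribonuclease (1747 and 621), and the acinar transcription factor genes *Bhlha15* (3.81 and 1.71) and *Rbpjl* (6.29 and 2.90). *Sdc1* was 18.5 and 8.79, the neutrophil sums were 58.5 and 53.0, and the depths were 22.9 and 32.7 M reads. In cKO saline 2 of the 20 were at least 2-fold lower in replicate 2, *Rbpjl* (29.0 and 8.45) and *Bhlha15* (39.6 and 18.2), and *Ptf1a*, another acinar transcription factor gene, was 23.1 and 15.1. In cKO FAEE-SAP *Rbpjl* was the one at least 2-fold lower, at 16.4 and 6.80, and in WT saline 0 of the 20 differed by 2-fold. The part of these markers in the differences between replicates was not tested.

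The 11 genes with an ER stress response element or element II in their window, printed above, had a median log2 ratio of replicate 2 over replicate 1 of 0.48 in WT FAEE-SAP, with 9 above 0 and 2 below. The 20 genes with a window and neither element had a median of -0.13, with 9 above 0 and 11 below. Within the element group *Dnajc3* (-0.22) and *Canx* (-0.38) lay below 0. The element genes also lay on one side of 0 in the saline groups. In WT saline their median was 0.26, with 10 above 0 and 1 below, beside 0.05 for the genes without an element. In cKO saline it was -0.39, with 0 above 0 and 11 below, beside -0.43 for the genes without. In cKO FAEE-SAP the medians were 0.09 and -0.01. For FAEE-SAP against saline in WT, the medians of the log2 fold change were 0.01 with an element and -0.39 without. In cKO the order was the other way, with -0.25 with an element (2 above 0 and 9 below) and -0.12 without (6 above 0 and 14 below). *Xbp1*, the gene called higher, had no match in its window, and neither did *Pdia2*, *Ppib*, *Sel1l*, or *Edem1*. The 2 groups are small, and no test was run on them.

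**Figure D4:**
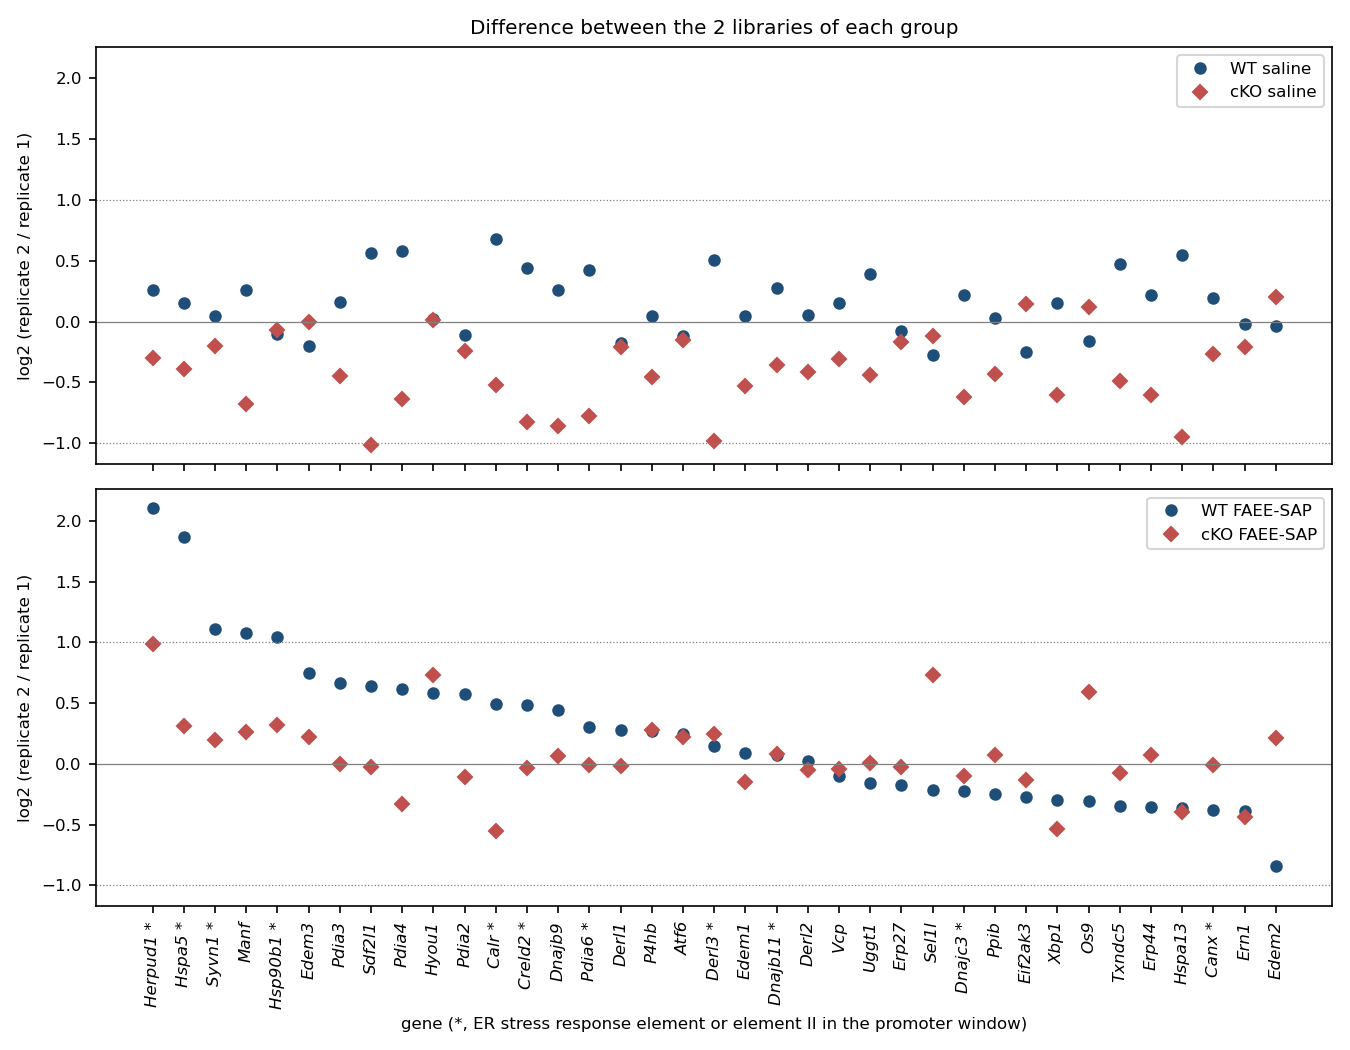
Log2 ratio of replicate 2 over replicate 1 for the 37 genes in WT (circles) and cKO (diamonds), after saline in the upper panel and FAEE-SAP in the lower, with genes ordered by the ratio in WT FAEE-SAP, asterisks for genes with an ER stress response element or element II, and dotted lines at 2-fold. The 5 WT FAEE-SAP points above the upper dotted line are *Herpud1*, *Hspa5*, *Syvn1*, *Manf*, and *Hsp90b1*, and in cKO saline 32 of the 37 points lie below 0; 6 genes, among them *Manf* and *Hyou1*, had no window to search.

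FAEE-SAP was also compared with saline in cKO mice. None of the 37 genes was called (limma, adjusted p under 0.05 and 2-fold), where 0.0531% of 9423 genes were called higher and 0% lower. With an unadjusted p under 0.05 and 2-fold, *Pdia2* and *Derl3* passed, against 2.97% of all genes. *Pdia2* was 978 and 827 in cKO saline and 449 and 416 in cKO FAEE-SAP (log2 fold change -1.03, SE 0.17, limma adjusted p = 0.255). *Derl3*, an ERAD channel gene of secretory cells, was 27.7 and 14.0 in cKO saline and 8.53 and 10.1 in cKO FAEE-SAP (log2 fold change -1.04, SE 0.36, limma adjusted p = 0.495). The 7 genes called in WT had the same sign in cKO with smaller values, but with unscaled RPKM *Sel1l*, *Ppib*, *Edem1*, and *Atf6* turned to above 0 there, and scaled to the RPKM outside the 32 enzymes *Sel1l* and *Ppib* did. *Sel1l* also turned with a trimmed mean of log ratios and with quantile normalization, and stayed below 0, at -0.12, with 4 further amylase genes left out of the total. They were -0.67 for *Erp27*, -0.40 for *Ppib*, -0.59 for *Edem1*, -0.60 for *Atf6*, and 0.52 for *Xbp1*, with *Sel1l* near 0, at -0.0008 (SE 0.27). *Hspa5* was -0.25 (SE 0.22). The median of the 37 genes was -0.16, with 10 above 0 and 27 below, beside -0.01 for all genes. With unscaled RPKM 34 lay above 0 and 3 below, beside 0.57 for all genes. The acinar markers had a median of -0.81 here, with 20 of 20 below 0 and 0 called. The 7 islet markers all lay above 0, with a median of 0.39 and 0 called. Markers of the other cell types had 0 calls, with medians from -0.82 (adipocytes) to 1.91 (neutrophils). The part of these cells in the differences was not tested.

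The levels in the cKO libraries of the other genes described above were as follows. *Erp27* was 77.4 and 69.0 in cKO saline and 45.2 and 44.5 in cKO FAEE-SAP, and *Edem1* was 43.7 and 30.3 against 24.9 and 22.5. *Atf6* was 8.23 and 7.41 in cKO saline and 4.62 and 5.41 in cKO FAEE-SAP. For these 3 genes, called lower in WT, the cKO groups did not overlap either, as for *Pdia2* and *Ppib*. Their cKO FAEE-SAP libraries were above the WT FAEE-SAP libraries. Under random labels, 2 libraries against 2 separate fully in either direction with a probability of 0.33. The share of all genes that separate was not counted, here or for the genes below. *Xbp1* was 71.2 and 46.8 in cKO saline and 97.7 and 67.4 in cKO FAEE-SAP, and these groups overlapped. *Ern1* was 4.53 and 3.91 in cKO saline and 3.31 and 2.42 in cKO FAEE-SAP, and *Eif2ak3* was 10.7 and 11.8 against 8.02 and 7.29, both without overlap. *Calr* was 25.3 and 17.6 in cKO saline and 32.7 and 22.2 in cKO FAEE-SAP, and *Uggt1* was 3.91 and 2.86 against 3.11 and 3.12. Both overlapped between the groups. *Pdia3* was 20.2 and 14.8 in cKO saline and 24.0 and 24.0 in cKO FAEE-SAP, without overlap, and *Manf* was 18.9 and 11.8 against 13.8 and 16.5, with overlap. *Dnajc3* was 34.3 and 22.2 in cKO saline and 21.7 and 20.2 in cKO FAEE-SAP, with little space between the nearest libraries. *Hspa13* was 3.65 and 1.84 in cKO saline and 2.70 and 2.03 in cKO FAEE-SAP, with overlap, and *Derl1* was 7.92 and 6.82 against 8.76 and 8.65, without.

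**Figure D5:**
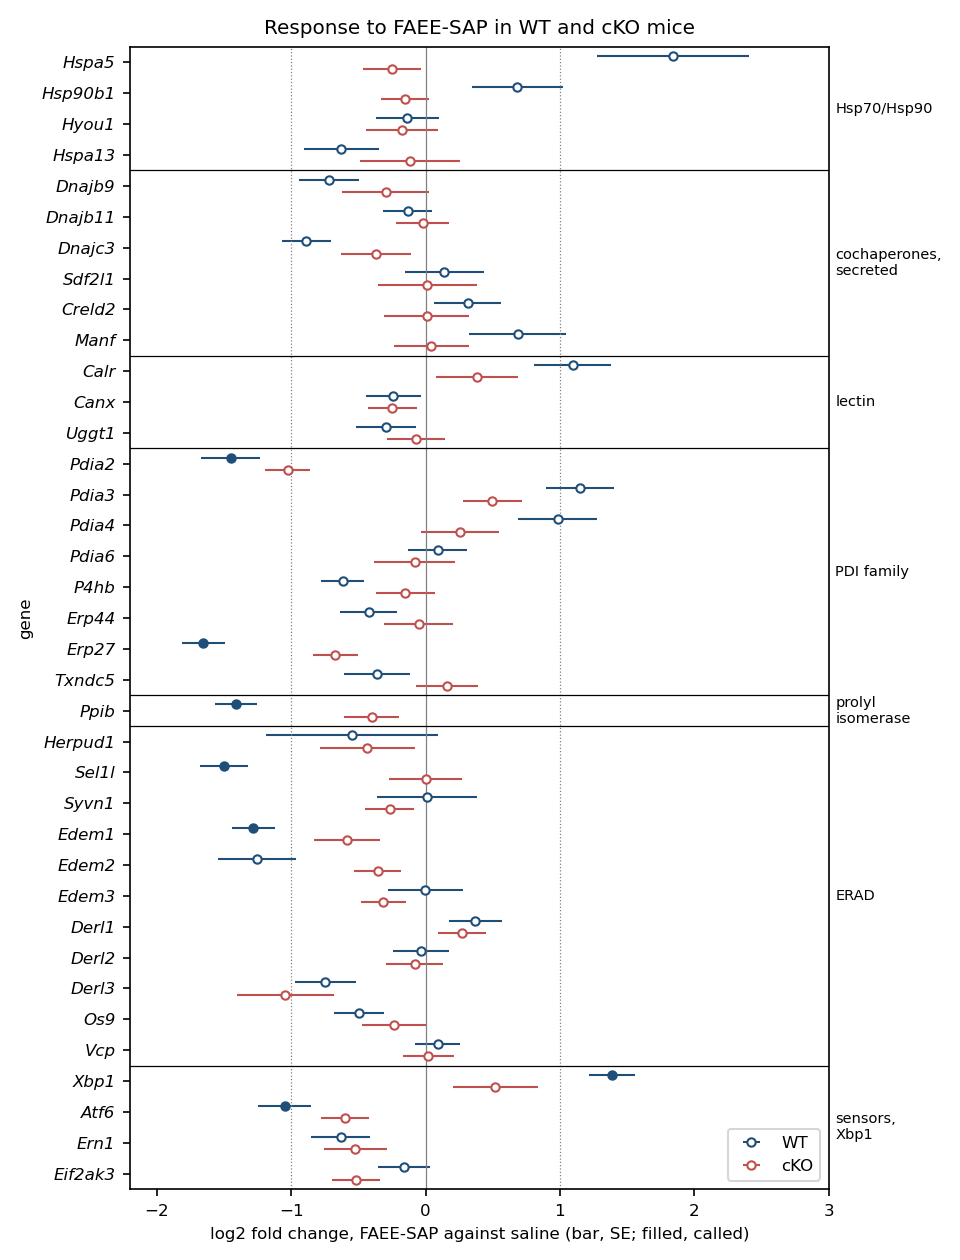
Log2 fold change of FAEE-SAP against saline for each of the 37 genes in WT (blue) and cKO (red), with bars for the SE, filled points for calls, and dotted lines at 2-fold. Filled points occur in WT alone, at *Pdia2*, *Erp27*, *Ppib*, *Sel1l*, *Edem1*, *Xbp1*, and *Atf6*, and a call in 1 genotype does not test the difference between genotypes.

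After saline the genotypes were compared to ask whether these genes differ between cKO and WT mice without pancreatitis. The paper states that WT mice were bought from a supplier and that cKO mice came from crossing floxed and Cre lines. Effects of the deletion, of Cre, and of origin therefore cannot be told apart in any comparison of the genotypes. None of the 37 genes was called, and neither was any of the 8715 genes tested (0%, limma). With an unadjusted p under 0.05 and 2-fold, 0 of the 37 passed and 0.677% of all genes. The log2 fold changes ran from -0.22 (*Eif2ak3*) to 0.49 (*Derl3*), with 32 above 0 and 5 below and a median of 0.11, beside 0.01 for all genes. As deposited the count turned to 2 above 0 and 35 below, with a median of all genes of -0.25, so the common sign follows the scaling. *Derl3* was 11.5 and 16.3 in WT saline and 27.7 and 14.0 in cKO saline, and its cKO libraries lay on either side of the higher WT library.

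After FAEE-SAP the genotypes were compared directly. None of the 37 genes was called, where 0.863% of 11008 genes were called higher in cKO and 0.409% lower (limma, adjusted p under 0.05 and 2-fold). With an unadjusted p under 0.05 and 2-fold, *Erp27*, *Ppib*, and *Sel1l* passed as higher and *Hspa5* as lower in cKO, against 8.39% of all genes. *Erp27* was 45.2 and 44.5 in cKO against 21.9 and 19.4 in WT mice (log2 fold change 1.11, SE 0.17, limma adjusted p = 0.0552). *Ppib* had a log2 fold change of 1.05 (SE 0.17, limma adjusted p = 0.0682). *Sel1l* had 1.31 (SE 0.28, limma adjusted p = 0.103), and both its cKO libraries were above both WT libraries. *Hspa5* had -1.91 (SE 0.58, limma adjusted p = 0.176), and without replicate 2 of WT FAEE-SAP the value was -0.98. *Xbp1* stood at 147 and 119 in WT against 97.7 and 67.4 in cKO, a log2 fold change of -0.72 (SE 0.23, limma adjusted p = 0.186). *Eif2ak3* stood at 12.7 and 10.5 in WT against 8.02 and 7.29 in cKO, without overlap (log2 fold change -0.60, SE 0.20, limma adjusted p = 0.193). These 4 libraries also differed in their acinar markers, which were all higher in cKO, 14 of 20 of them called, with sums of 309353 and 347927 against 116899 and 121685. Of the 7 islet markers 6 were higher in cKO and 3 were called (*Gcg*, *Iapp*, and *Sst*), with a median of 1.22 and sums of 428 and 450 against 181 and 239. All 5 neutrophil markers tested were lower in cKO, 2 of them called, with a median of -1.70. Markers of the other cell types had 0 calls, with medians from -0.97 (adipocytes) to 0.65 (macrophages). The part of these cells in the differences was not tested.

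The count in this comparison changed when more libraries entered the fit and with the scaling. Over all 8 libraries in 1 model, *Erp27*, *Ppib*, and *Sel1l* were called higher in cKO, with adjusted p-values of 0.0144, 0.0335, and 0.0403, where 1.69% of all genes were called higher and 1.03% lower. With the deposited values, where the median of all genes was -0.91, 0 of the 37 were called higher and 13 lower (35.1%), a lower share than the 39.6% of all genes called lower (0.663% were called higher). Scaled to the RPKM outside the 32 enzymes 9 were called lower and 0 higher (24.3% lower, against 28.7% lower and 0.772% higher of all genes). With 4 further amylase genes left out 0 were called in either direction, against 0.5% higher and 1.39% lower.

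The interaction of genotype and FAEE-SAP over all 8 libraries tested whether the response to FAEE-SAP differed between the genotypes. None of the 37 genes was called, where 0.0449% of 11133 genes were called with a higher and 0.0269% with a lower response in cKO (limma, adjusted p under 0.05 and 2-fold). With an unadjusted p under 0.05 and 2-fold, *Sel1l* and *Hspa5* passed, against 7.02% of all genes. *Sel1l* had an interaction of 1.46 (SE 0.35, limma adjusted p = 0.217) and *Hspa5* of -2.13 (SE 0.74, limma adjusted p = 0.330), or -1.19 without replicate 2 of WT FAEE-SAP. *Erp27* (0.94, SE 0.21), *Ppib* (0.98, SE 0.26), and *Xbp1* (-0.90, SE 0.37) lay between -1 and 1. A response in cKO that differs from that in WT was thus not detected for any of the 37 genes at this number of libraries, and the SE leave room for differences of 2-fold in several of them.

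Other genes of the same pathways were examined from 3 lists. Of 34 other ER folding genes tested, 6 were called lower and 0 higher in WT after FAEE-SAP, where 3.86% of all genes were called lower and 3.08% higher, and the median of the list was -0.20, beside 0.02 for all genes. *Ero1lb*, the pancreatic oxidase that recharges disulfide isomerases, was 76.2 and 69.8 in WT saline and with FAEE-SAP 9.33 and 6.95 in WT against 37.9 and 47.6 in cKO (log2 fold change in WT -3.17, SE 0.20, limma adjusted p = 0.00257). *Fkbp11*, a prolyl isomerase of secretory cells, was 24.7 and 26.0 in WT saline and with FAEE-SAP 3.39 and 4.38 in WT against 19.8 and 18.3 in cKO. *Prdx4*, an ER peroxidase that also feeds disulfide formation, was 43.0 and 38.7 in WT saline and with FAEE-SAP 8.80 and 9.95 in WT against 24.9 and 23.2 in cKO. All 3 fell in WT with FAEE-SAP and were called higher in cKO than in WT after FAEE-SAP (0.863% of all genes), with log2 fold changes of 2.38, 2.27, and 1.34 and adjusted p-values from limma of 0.0184, 0.0180, and 0.0403. *Ppic*, *Fkbp2*, and *Sil1*, the other nucleotide exchange factor of BiP, were the remaining calls in WT, at -1.58, -1.13, and -1.22.

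Of 30 other ERAD genes tested in WT, *Man1a*, a mannosidase, was the only call, at a log2 fold change of -1.12 (SE 0.19, limma adjusted p = 0.0319), and the median was -0.11. Of 27 other UPR signaling genes, 1 was called lower and 1 higher, and the median was 0.22. The counts in these 2 lists are near those that the shares of all genes, 3.86% lower and 3.08% higher, would give. *Creb3l1*, a membrane-bound transcription factor related to ATF6, was 4.43 and 4.17 in WT saline and with FAEE-SAP 1.63 and 1.31 in WT against 6.04 and 4.50 in cKO, and it was called higher in cKO than in WT after FAEE-SAP (log2 fold change 1.78, SE 0.25, limma adjusted p = 0.0419). *Cebpb*, which lies downstream of several stress pathways, was 2.90 and 3.71 in WT saline and 7.16 and 9.64 in WT FAEE-SAP (log2 fold change 1.32, SE 0.24, limma adjusted p = 0.0342). In cKO FAEE-SAP against saline, and in cKO against WT after saline, none of the genes of the 3 lists was called.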

How the data were processed

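RNA-Seq of 8 pancreas libraries was used, with groups and replicate numbers from the sample titles. The authors made libraries with a directional kit, filtered paired-end reads with fastp, mapped them to GRCm38.p6 with CLC Genomics Workbench, and deposited RPKM for 48709 genes per library. How RPKM was computed is not given in the sources used here. Genes with RPKM of at least 0.5 in at least 2 libraries of a comparison were kept and scaled by the median of ratios. Log2 of scaled RPKM plus 0.1 was fitted with limma 3.58.1 (R 4.3.3, eBayes with an intensity trend) for 5 comparisons. Fold changes are on this scale, which understates the change of low genes. A call needed a Benjamini-Hochberg adjusted p under 0.05 over all genes and 2-fold. Levels are on 1 scale over 8 libraries, within 0.0299 log2 units of each comparison's own scale. The procedure was tested on simulated data. An exact permutation test of 2 libraries against 2 (two-sided) cannot go below p = 0.33 and was not used. P-values rest on the spread within groups of 2 libraries, moderated by limma over all genes tested.

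Named with every library were genes called in any comparison, the sensors, *Xbp1*, *Hspa5*, the most abundant gene of each role, and those with the largest and smallest change in WT. Up to 5 called genes of each further list were named by adjusted p, and *Sil1* after its value was seen. *Herpud1*, *Hsp90b1*, *Syvn1*, *Derl3* and other genes given with values were named after their values were seen. The genes and lists were chosen with earlier results of these data known. Coordinates and exonic lengths are from GENCODE vM21 (GRCm38), in which 95.1% of genes were found by symbol, and promoter windows are from RefSeq (GRCm38.p6). Library totals from whole reads are approximate: 84.1% to 85.5% of values under 20 reads were whole within 0.1, and the reads summed to 100.3% to 105.7% of the totals. Alternatives were other scalings, filters, pseudocounts, models, thresholds, a replicate block, and each library left out. Protein sequences and all other assays were not used here. Figures were drawn with matplotlib 3.10.9 in Python 3.11.15.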

Additional observations from a re-analysis of the deposited data

How the results depend on the processing

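FAEE-SAP gave 7 calls among the 37 genes in WT mice, and the other comparisons gave 0. In WT the count was 19 as deposited (51.4%, where 65.9% of all genes were called higher) and 14 scaled to the RPKM outside the digestive enzymes (37.8%, against 45.1%). It was 11 with an unadjusted p (29.7%, against 12.4% of all genes in either direction). With the replicate block it was 6, 1 higher and 5 lower, where 1.68% of all genes were called higher and 2.38% lower. Each library left out gave fewer calls than the main fit. In cKO it was 2 with an unadjusted p. In cKO against WT after FAEE-SAP it was 13 as deposited (35.1%, where 39.6% of all genes were called lower) and 9 outside the enzymes (24.3%, against 28.7%). It was 2 with an RPKM minimum of 2, both higher (1.43% of all genes were called higher and 0.646% lower). With all 8 libraries in 1 model it was 3, all higher (1.69% of all genes higher and 1.03% lower). With an unadjusted p it was 4 (10.8%, against 8.39% of all genes in either direction). For the interaction it was 2 with an unadjusted p. Same-numbered libraries deviated from their group means with correlations of -0.175 (WT), 0.450 (cKO), -0.395 (saline), and 0.313 (FAEE-SAP). The signs were mixed, and with 2 libraries per group these values cannot show whether the numbers pair the samples. The main fits have no block. With the replicate block, 4 genes were called in cKO against WT after FAEE-SAP, *Ppib*, *Sel1l*, and *Erp27* higher and *Hspa5* lower (limma adjusted p 0.0327 to 0.0493). Of all genes, 3% were then called higher and 2.16% lower, against 0.863% and 0.409% without the block. With the replicate numbers of WT saline exchanged, a block added after the data were seen, the counts were 7 in WT and 0 in saline. Of all genes, 3.47% were then called higher and 4.08% lower in WT, and 0% in saline.

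Signs turned mostly with the scaling. As deposited, log2 fold changes in WT were 0.43 for *Dnajc3*, 0.036 for *Edem1*, 0.25 for *Atf6*, 0.66 for *Ern1*, 1.15 for *Eif2ak3*, 0.63 for *Hspa13*, and 0.99 for *Uggt1*. Outside the enzymes they were 0.12 for *Dnajc3*, 0.36 for *Ern1*, 0.85 for *Eif2ak3*, 0.34 for *Hspa13*, and 0.69 for *Uggt1*, and *Eif2ak3* ran from -0.30 to 0.019 with each library left out, above 0 without WT FAEE-SAP replicate 2. In cKO, values as deposited were 0.37 for *Hspa5*, 0.22 for *Ppib*, 0.62 for *Sel1l*, 0.034 for *Edem1*, and 0.0091 for *Atf6*, and outside the enzymes 0.20 for *Hspa5*, 0.055 for *Ppib*, and 0.45 for *Sel1l*. *Sel1l* in cKO, near 0 as reported, was also 0.013 with a trimmed mean of log ratios, 0.16 with quantile normalization, 0.041 with an RPKM minimum of 2, and from -0.30 to 0.37 with each library left out, above 0 without replicate 1 of cKO saline or of cKO FAEE-SAP. In cKO against WT after FAEE-SAP, values as deposited were -0.32 for *Pdia2*, -0.090 for *Edem1*, and -0.41 for *Atf6*, and outside the enzymes -0.19 for *Pdia2* and -0.27 for *Atf6*. Interactions as deposited were -0.28 for *Pdia2*, -0.0021 for *Edem1*, and -0.25 for *Atf6*, and outside the enzymes -0.13 for *Pdia2* and -0.10 for *Atf6*. The cause was not tested.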
